A study of Mus musculus with 18 samples.

Results

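Cumulus cells of C57BL/6 mice exposed to PM2.5, airborne particles fine enough to be inhaled deeply, were compared with cumulus cells of C57BL/6 mice kept in filtered air. The comparison used 3 RNA sequencing libraries of the PM2.5 exposure group and 3 of the filtered-air group, and covered every gene whose mean over these 6 libraries was at least 3 on the deposited log2 scale. This rule kept 4780 of the 52550 genes in the table, and all 4780 were above 0 in at least 3 libraries and were tested. The whole series holds 18 libraries, 3 for each exposure in cumulus cells, oocytes and blastocysts. The dose and length of the exposure, the age of the mice, the number of cells in a library and whether replicates came from separate animals were not stated in any source used here, so p-values measure only the spread between libraries, which may be technical. No transgene or knockout is named for either group.

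Cumulus cells are the granulosa-derived cells that surround the oocyte in the antral follicle. They pass pyruvate, cholesterol and amino acids to the oocyte through gap junctions, and in return the oocyte's growth factors shape their metabolism. After the ovulatory hormone surge, EGF-like ligands drive them to switch on early transcription factors, prostaglandin synthesis and a hyaluronan matrix.

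The markers of granulosa and cumulus cells were present in all 6 libraries. The activin-binding protein Fst lay between 7.11 and 7.5, the nuclear receptor Nr5a2 between 5.89 and 6.23, and the activin subunit Inhba between 5.94 and 6.35, with overlapping groups for each. The inhibin subunit Inha, a secreted inhibitor of pituitary FSH release, was 8.47, 8.63 and 9.0 in the exposed libraries and 7.63, 7.83 and 7.85 in the controls. Inha was thus higher in each exposed library, by 0.93 (SE 0.16), and its adjusted p of 0.135 did not pass the threshold of 0.05. Of the other cumulus products, Hsd17b1 (estradiol synthesis) was also higher in every exposed library and the BMP antagonist Grem1 was lower in every one, while 10 of the 20 genes in this marker list lay under the mean of 3.

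RNA of other cells was also present. Over the whole oocyte marker list of 15 genes, the mean level ran from 1.45 to 1.95 in the exposed libraries and from 1.36 to 1.59 in the controls, with Figla at 0 in all 6. The 21 leukocyte markers ran from 2.26 to 2.41 in the exposed libraries and from 1.88 to 2.56 in the controls, with the T cell marker Cd3e at 0. The 8 erythroid markers ran from 0.49 to 3.83 in the exposed libraries and from 0.44 to 4.15 in the controls, and were high in PM2.5 replicate 2 and in air replicates 1 and 3. Means of 15 oviduct epithelium markers did not overlap, at 1.25 to 1.33 in the exposed libraries against 1.03 to 1.09 in the controls, with 5 defining markers, among them Foxj1 and Krt7, at 0 in every library. The oviduct secretory marker Ovgp1 was 1.94, 0.97 and 1.46 with PM2.5 and 0, 0.04 and 0.29 in filtered air, and Tubb4b (0.60) and Krt18 (0.37) of the same list were higher in every exposed library too. Those of 15 stromal and muscle markers did not overlap either, at 0.38 to 0.44 against 0.28 to 0.32, and none of these 15 reached the mean of 3. Luteal markers, 8 genes, ran from 5.32 to 6.16 against 5.50 to 5.64, and 11 endothelial markers from 0.35 to 0.40 against 0.32 to 0.38. The part of these cells in the differences below was not tested, and in bulk libraries fewer cells of a type cannot be told apart from less RNA per cell.

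PM2.5 replicate 1 stood apart from the other exposed libraries. On the first principal component, 42.4% of the variance, it lay at -0.45, between PM2.5 replicates 2 and 3 (17.0 and 24.5) and the controls (-6.25 to -20.7). Across the tested genes it correlated with air replicates 1 and 2 at 0.951 and 0.954, with PM2.5 replicates 2 and 3 at 0.943 each, and with air replicate 3 at 0.938. The libraries also differed in how strongly the level declined with transcript length. The slope was -1.07 log2 units per 10-fold length in PM2.5 replicate 1, -1.53 and -1.60 in replicates 2 and 3, and -1.14, -0.92 and -0.89 in air replicates 1, 2 and 3. The steepest slopes were therefore those of 2 exposed libraries, and the other exposed library lay within the range of the controls.

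Over all 4780 genes the median difference, PM2.5 minus filtered air, was 0.09 log2 units. Of these genes, 813 (17.0%) were higher in every exposed library than in every control, and 444 (9.29%) were lower in every one. After adjustment over all 4780 genes, 8 genes (0.167%) passed limma's moderated test at an adjusted p under 0.05, of which 7 rose (0.146%) and 1 fell (0.0209%). At an unadjusted p under 0.05 there were 729 higher and 385 lower genes. RefSeq classes 5 of the 8 as pseudogenes and 3 as protein-coding. Of the genes tested, 327 had a mean under 3 in 1 group and not in the other, 168 in filtered air and 159 with PM2.5. Among the 8, Gm12245 (2.25), Gm4322 (2.34), Tpm3-rs7 (2.58) and Socs3 (2.785) were under 3 in filtered air, and Plaa (2.91) was with PM2.5. These genes met the mean of 3 only through the group where they were higher.

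**Figure D1:**
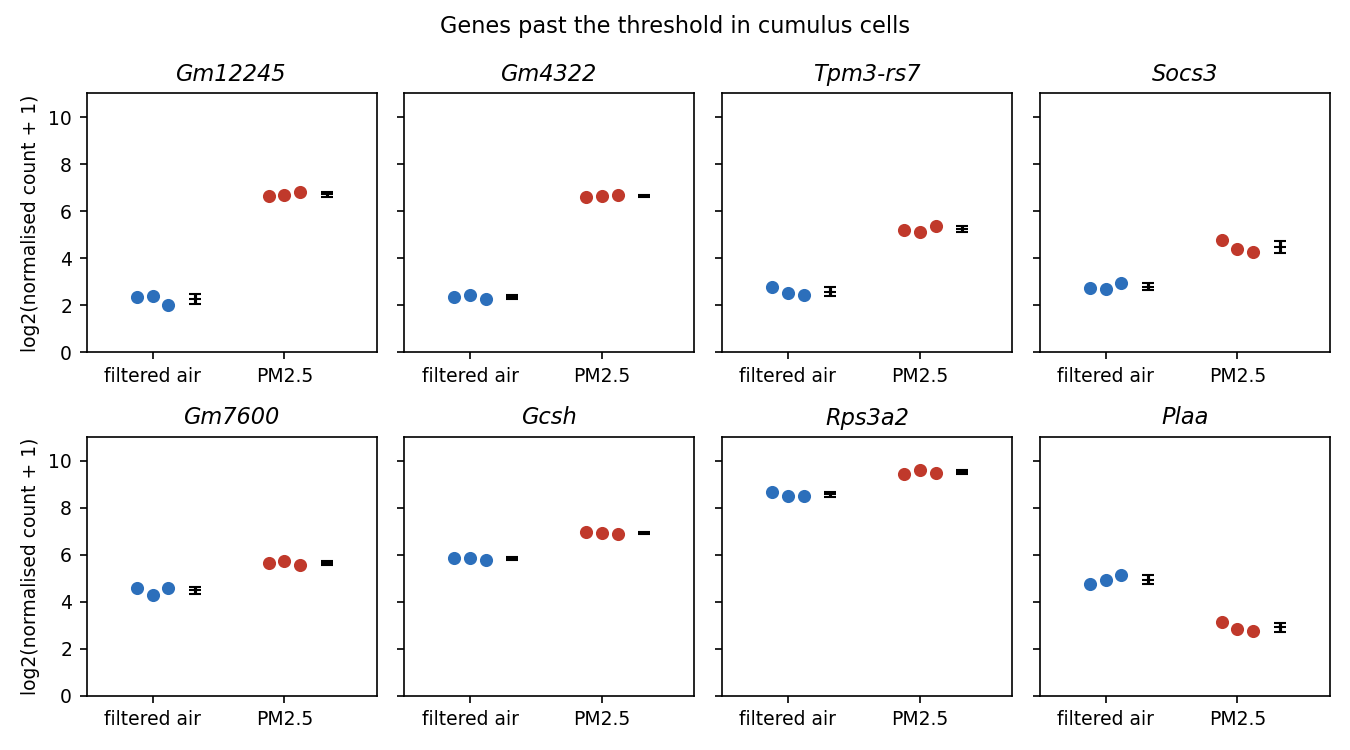
Level of the 8 changed genes on the log2(normalised count + 1) scale in each of the 3 filtered-air (blue) and 3 PM2.5 (red) cumulus libraries, with the mean and SD in black. The groups are separate for all 8, and Plaa is the 1 gene that is lower with PM2.5.

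The widest separations were in pseudogenes. Gm12245, Tpm3-rs7 and Rps3a2 are near-identical to a parent gene, where reads can be split between copy and parent, so their values are uncertain as levels of the copy. Gm12245, a pseudogene at chr11:57948503-57949252 (GRCm38.p6), was 6.64, 6.68 and 6.81 in the exposed libraries and 2.34, 2.40 and 2.0 in the controls. It rose by 4.46 (SE 0.15, adjusted p = 8.99e-06). Its 357 exon bases matched the transcript of the small X-linked protein gene Bex4 at 98.9% identity over their whole length.

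Bex4 itself stood at 9.34, 9.60 and 9.66 in the exposed libraries and at 9.58, 9.43 and 9.18 in the controls. The Bex4 groups overlapped, with a difference of 0.14 (SE 0.15, adjusted p = 0.565). Gm4322, a pseudogene at chr1:150268684-150269465, had 6.60, 6.62 and 6.69 with PM2.5 and 2.34, 2.43 and 2.26 in filtered air. Its rise of 4.29 (SE 0.12, adjusted p = 4.91e-06) was close in size to that of Gm12245, and both genes had nearly the same level in each group. No parent gene is assigned here to Gm4322 or to Gm7600, which are not in the annotation used for the comparison of sequences.

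Tpm3-rs7, at chr14:113314601-113316720, is a copy of Tpm3, which encodes an actin-binding tropomyosin. It was 5.20, 5.12 and 5.36 with PM2.5 and 2.78, 2.53 and 2.43 in filtered air, a rise of 2.65 (SE 0.15, adjusted p = 0.000313). Its exons matched Tpm3 at 99.1% identity over their full length. Tpm3 had 4.23, 4.24 and 4.15 with PM2.5 and 4.80, 4.71 and 4.68 in filtered air, so the copy was higher and the parent lower in every exposed library. The difference of Tpm3 was -0.53 (SE 0.12) and did not pass the threshold (adjusted p = 0.176).

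Rps3a2, at chr14:88122952-88123833, matched the ribosomal protein gene Rps3a1 at 99.5% identity over its 795 bases. An entry named Gm10119 matched the same bases without a difference. It was not determined whether that entry is Rps3a2 itself under another name. Rps3a2 was 9.44, 9.60 and 9.48 with PM2.5 and 8.66, 8.51 and 8.51 in filtered air, a rise of 0.95 (SE 0.12, adjusted p = 0.0300). Its parent Rps3a1 was 11.18, 11.34 and 11.22 with PM2.5 and 11.45, 11.34 and 11.30 in filtered air, a difference of -0.12 (SE 0.12, adjusted p = 0.536). The remaining pseudogene, Gm7600 at chr8:11683394-11684260, had 5.64, 5.72 and 5.57 against 4.59, 4.30 and 4.56, a rise of 1.16 (SE 0.13, adjusted p = 0.0225). Of all 377 pseudogenes tested, 19.1% were higher in every exposed library, near the 17.0% of 4143 protein-coding genes, and 2.65% were lower in every one, against 9.82%. Their median difference was 0.28 against 0.06.

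Plaa was the only gene that fell. It encodes a cofactor of the VCP segregase that binds ubiquitin and works in the clearance of ubiquitylated proteins and damaged lysosomes. Its level was 3.11, 2.85 and 2.76 with PM2.5 and 4.76, 4.91 and 5.15 in filtered air, and every exposed library lay more than 1 log2 unit under every control. The fall was 2.03 log2 units (difference -2.03, SE 0.16, adjusted p = 0.00312). The gene lies at chr4:94565139-94603247 and overlaps the shorter gene Gm12657, which was 4.50, 4.35 and 4.34 with PM2.5 and 4.25, 4.04 and 3.96 in filtered air, so the overlapping gene was higher in every exposed library. Without a stated strand of counting, reads of overlapping genes cannot be assigned with certainty.

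Among 19 tested genes for VCP, its adaptors and ubiquitin, no other passed, and an unadjusted p under 0.05 was reached by 3 higher and 2 lower genes, Plaa among the latter. The polyubiquitin gene Ubb (0.51, SE 0.13) and the adaptor Ubxn1 (0.48) were higher in every exposed library, and the adaptor Faf1 (-0.45) and the membrane protein Derl1 (-0.24) were lower in every one. Vcp itself was 6.20, 6.13 and 6.06 with PM2.5 and 6.06, 6.01 and 5.66 in filtered air, and its groups were barely separated. Of the 19 genes, 5 (26.3%) were higher and 3 (15.8%) lower in every exposed library, against 17.0% and 9.29% of all genes, and the median difference was 0.17 against 0.09 for all genes tested.

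Gcsh encodes the H protein, the lipoylated carrier of the mitochondrial glycine cleavage system. It was 6.94, 6.91 and 6.87 with PM2.5 and 5.87, 5.84 and 5.77 in filtered air, a rise of 1.08 (SE 0.11, adjusted p = 0.0133). The exposed libraries all lay above the controls, and the libraries of each group were close together. The other proteins of the complex lay low or differed in the other direction. Gldc, the decarboxylase, was at 0.11 or less in every library, and Amt, the aminomethyltransferase, ran from 0.14 to 0.41 with PM2.5 and from 0.07 to 0.12 in filtered air. The shared dehydrogenase Dld was lower in every exposed library, at 5.52, 5.12 and 5.0 against 5.55, 5.74 and 5.60, by -0.42 (SE 0.16, adjusted p = 0.201). Mthfd2, a mitochondrial folate enzyme, overlapped between the groups at 3.79, 3.40 and 3.18 against 3.41, 3.85 and 3.81.

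**Figure D2:**
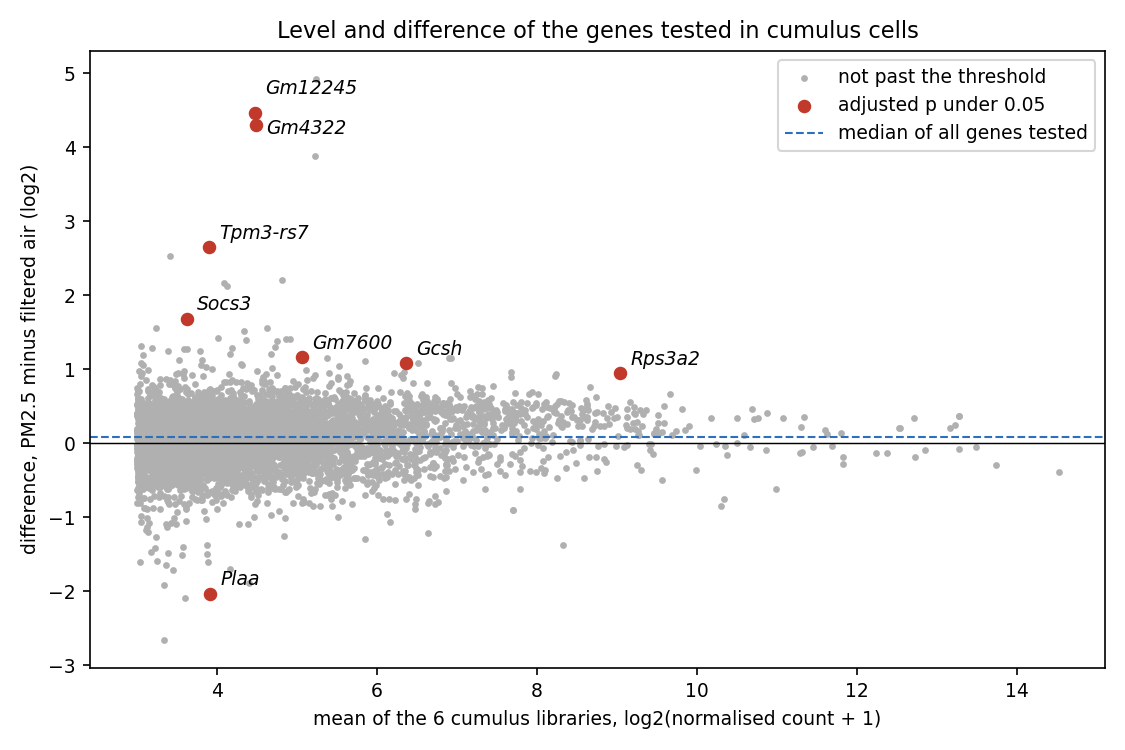
Difference between PM2.5 and filtered air (log2, vertical) against the mean of the 6 cumulus libraries (log2, horizontal) for the 4780 genes tested, with the 8 changed genes in red. Grey points also reach differences as large as those in red, some in genes with close replicates, such as Clu, and some in genes with scattered ones, such as Serpinh1, at 2.02, 1.66 and 6.20 in the controls.

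Socs3 encodes a feedback inhibitor that is transcribed downstream of STAT3 and then blocks the gp130 and JAK complex. It was 4.77, 4.38 and 4.26 with PM2.5 and 2.72, 2.68 and 2.95 in filtered air, and every exposed library was higher than every control. The rise of 1.69 (SE 0.18, adjusted p = 0.0135) was the largest among protein-coding genes that passed. The other family members that were tested were lower in every exposed library, and none passed. Socs2 was 4.92, 4.84 and 4.58 with PM2.5 and 4.94, 5.22 and 5.44 in filtered air. Socs4 was lower in every exposed library by -0.56 (SE 0.19) and Socs5 by -0.33 (SE 0.13), neither past the threshold (adjusted p = 0.185 and 0.204). The kinase Jak2 (-0.40) and the phosphatase Ptpn2 (-0.27) were lower in every exposed library as well.

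Stat3, the transcription factor upstream of Socs3, overlapped between the groups at 3.70, 3.57 and 3.88 against 3.96, 3.73 and 3.61. Pim3, a kinase gene that STAT factors induce, was 4.02, 4.19 and 4.06 with PM2.5 and 3.57, 3.47 and 3.52 in filtered air. It was higher in every exposed library by 0.57 (SE 0.13, adjusted p = 0.176). The cytokine Il6 and the gp130 receptor Il6st were under the mean of 3 and overlapped. Of the 14 tested genes of this list, 2 (14.3%) were higher and 5 (35.7%) lower in every exposed library, against 17.0% and 9.29% of all genes, and the median difference was -0.10.

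The calls of the 8 genes did not rest equally on the 6 libraries. Gm12245, Gm4322 and Tpm3-rs7 passed with any 1 library left out, and so did Plaa. With the hemoglobin level of each library as a covariate these 4 passed, and Socs3 (adjusted p = 0.0511), Gm7600 (0.0511), Gcsh (0.0732) and Rps3a2 (0.127) did not. Socs3 did not pass without PM2.5 replicate 2 (adjusted p = 0.0676) or air replicate 2 (adjusted p = 0.0737). Gcsh, Gm7600 and Rps3a2 did not pass without PM2.5 replicate 2, PM2.5 replicate 3, air replicate 2 or air replicate 3, with adjusted p from 0.0585 to 0.105 for Gcsh, 0.0763 to 0.134 for Gm7600 and 0.131 to 0.252 for Rps3a2. With no filter on the mean, Socs3, Gm7600 and Rps3a2 did not pass either. The count of genes that passed was 559 without PM2.5 replicate 1 and 14 without air replicate 1.

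Immediate early genes are transcribed within minutes of a growth factor or stress signal, without new protein synthesis. Of 23 tested, 12 were higher in every exposed library and none was lower in every one, where 17.0% and 9.29% of all genes were. The median difference was 0.47. No member passed limma's adjusted threshold, and 13 had an unadjusted p under 0.05, all higher. Ier2, a short nuclear protein gene, was 6.79, 6.47 and 6.81 with PM2.5 and 5.97, 5.74 and 5.52 in filtered air, a difference of 0.94 (SE 0.16, adjusted p = 0.133). Zfp36, whose product binds AU-rich elements and promotes decay of cytokine mRNAs, was 5.73, 5.71 and 5.64 with PM2.5 and 5.07, 4.63 and 4.60 in filtered air, a difference of 0.92 (SE 0.16, adjusted p = 0.133). The separation for both genes was wider than the spread within either group.

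The AP-1 subunits Jun (0.70), Junb (0.64) and Jund (0.67) and Fosl2 (0.36) were all higher in every exposed library. Fos was not, at 7.62, 6.99 and 0.58 with PM2.5 and 6.18, 0.82 and 6.06 in filtered air, with 1 library in each group near 0. The MAP kinase phosphatase Dusp1 (0.47), the antiproliferative Btg2 (0.61), the orphan receptor Nr4a1 (0.71), the GTPase Rhob (0.65), Klf2 (0.61) and Egr1 (0.36) completed the 12. Of the 5 members with a difference below 0, Zfp36l2 had the lowest, at -0.44, and its groups overlapped. Without PM2.5 replicate 1, which held the highest mean of this list, 13 members were higher and 3 lower in every exposed library, where 32.7% and 25.1% of all genes were.

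The bases before the start of 4 genes that were higher in every exposed library are given here to show what elements lie in front of them. Each is the 250 bases before the RefSeq start in GRCm38.p6, on the gene's strand, with matches in capitals to the STAT motif TTCNNNGAA, the CRE TGACGTCA, its core TGACG, the AP-1 motif TGANTCA and the CArG box, all searched on both strands. The regions are chr11:117969367-117969616 (minus strand) for Socs3, chr7:28379229-28379478 (minus) for Zfp36, chr1:134079156-134079405 (minus) for Btg2 and chr17:26508473-26508722 (minus) for Dusp1.
Socs3: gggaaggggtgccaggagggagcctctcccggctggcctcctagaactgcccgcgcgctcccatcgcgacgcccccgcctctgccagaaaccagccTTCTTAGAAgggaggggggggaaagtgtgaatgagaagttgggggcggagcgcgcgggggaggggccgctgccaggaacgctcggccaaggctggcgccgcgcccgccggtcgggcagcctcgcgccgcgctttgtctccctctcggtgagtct
Zfp36: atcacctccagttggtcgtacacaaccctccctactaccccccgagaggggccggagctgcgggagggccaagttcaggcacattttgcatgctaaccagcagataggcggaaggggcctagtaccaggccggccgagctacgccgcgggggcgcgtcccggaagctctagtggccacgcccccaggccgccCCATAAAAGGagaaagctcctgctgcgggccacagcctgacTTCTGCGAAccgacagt
Btg2: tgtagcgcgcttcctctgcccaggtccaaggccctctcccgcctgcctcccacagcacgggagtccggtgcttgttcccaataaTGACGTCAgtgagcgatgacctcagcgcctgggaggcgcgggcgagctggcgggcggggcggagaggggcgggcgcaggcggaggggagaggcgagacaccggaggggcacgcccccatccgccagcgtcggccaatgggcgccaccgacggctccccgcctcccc
Dusp1: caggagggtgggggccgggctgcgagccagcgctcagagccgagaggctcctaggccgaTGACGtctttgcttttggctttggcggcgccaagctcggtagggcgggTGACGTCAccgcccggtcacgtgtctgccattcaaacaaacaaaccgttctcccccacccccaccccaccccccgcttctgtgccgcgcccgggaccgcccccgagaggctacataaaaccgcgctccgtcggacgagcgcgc

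In Socs3, the gene that rose, the capitals mark 1 STAT match that begins at -154, counted from the start. Zfp36 holds a CArG box, the element bound by serum response factor, at -58 and a STAT match at -17. Btg2 holds a CRE at -166 and Dusp1 a CRE at -143, each of which contains the core on both strands, and Dusp1 has a further core at -191. The 4 genes printed are those with a match other than the core. Of the other immediate early genes higher in every exposed library, Junb, Klf2 and Nr4a1 held only the core. Fosl2, Jun, Jund and Rhob held no match. Promoters were at hand for 18 of the 23 tested immediate early genes and for 3368 of the genes tested in all. A STAT match was present in 1 of the 18 (5.56%), against 5.37% of the tested genes with a promoter. The full CRE was present in 2 of the 18 (11.1%) against 3.09%, its core in 8 (44.4%) against 30.6%, the AP-1 motif in 1 (5.56%) against 3.77%, and the CArG box in 1 (5.56%) against 1.19%. Over all 27025 promoters of the table the shares were 7.18% for STAT, 1.62% for the CRE, 17.9% for its core, 6.87% for AP-1 and 1.40% for the CArG box. These are matches of letters in a window, not sites of binding.

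Of the EGF-like ligands, epiregulin (Ereg) and betacellulin (Btc) were the 2 of 9 tested genes of this pathway that were lower in every exposed library. These are 22.2% of the 9 against 9.29% of all genes, and 0 of the 9 were higher in every one, against 17.0%. Ereg was 2.88, 3.11 and 3.01 with PM2.5 and 3.83, 3.74 and 3.89 in filtered air, a difference of -0.82 (SE 0.14, adjusted p = 0.133). Btc was 4.43, 3.76 and 3.70 with PM2.5 and 4.79, 5.03 and 5.08 in filtered air, a difference of -1.0 (SE 0.22, adjusted p = 0.176). Areg, the ligand that acts beside them, overlapped at 2.89, 2.61 and 4.21 against 4.21, 3.38 and 3.69.

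Among 16 tested genes of cumulus expansion and ovulation, 3 (18.8%) were higher and 2 (12.5%) lower in every exposed library, near the 17.0% and 9.29% of all genes, and the median difference was -0.08. The number lower was 6 (37.5%) without PM2.5 replicate 1, where 25.1% of all genes were. It was also 6 without air replicate 3, where 12.1% of all genes were. No member passed the adjusted threshold in limma, and the unadjusted p was under 0.05 for 4 higher and 4 lower members. The prostaglandin synthase Ptgs2 was 6.01, 5.51 and 5.58 with PM2.5 and 6.14, 6.69 and 6.51 in filtered air, and the estrogen sulfotransferase Sult1e1 was 3.45, 2.18 and 3.63 against 5.12, 4.35 and 4.60. Both were lower in every exposed library, by -0.75 (SE 0.19) and -1.61 (SE 0.39), each with an adjusted p of 0.176. The matrix genes Tnfaip6 (-0.41) and Vcan (-0.22) overlapped between the groups. The hyaluronan synthase Has2 lay under the mean of 3, at 0.77 to 1.41 with PM2.5 and 0.89 to 1.52 in filtered air. Rgcc (0.32), Tnfrsf12a (0.44) and the plasminogen activator Plat (0.40) were higher in every exposed library.

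Of the receptors for the oocyte's BMP-like factors, Bmpr1a was lower in every exposed library, at 5.12, 4.61 and 4.49 against 5.13, 5.32 and 5.44, and Bmpr2 (-0.64) and Bmpr1b (-0.33) overlapped. The BMP target genes Id1 (0.34) and Id3 (0.34) were higher in every exposed library. Of the 13 tested genes of this list, 2 (15.4%) were higher and 2 (15.4%) lower in every exposed library, against 17.0% and 9.29% of all genes. No member passed the adjusted threshold in limma, with 2 at an unadjusted p under 0.05, both lower.

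Steroid synthesis had 15 tested genes, of which 4 (26.7%) were higher and 1 (6.67%) lower in every exposed library, against 17.0% and 9.29% of all genes, with a median difference of 0.27. Without PM2.5 replicate 2 the number higher was 9, where 21.9% of all genes were. With any other library left out it was 4 to 6. Without PM2.5 replicate 1 it was 5 (33.3%), where 32.7% of all genes were. Cyp11a1, which cuts the side chain of cholesterol to give pregnenolone, was 7.17, 6.81 and 7.31 with PM2.5 and 6.70, 6.55 and 6.42 in filtered air, a difference of 0.54 (SE 0.16, adjusted p = 0.185). Its electron donor Fdx1 was higher by 0.35 in every exposed library. Hsd3b1, the next enzyme, was 4.23 in PM2.5 replicate 1 and between 8.87 and 9.60 in the other 5 libraries. The cholesterol exporter Abca1 was 3.46, 3.07 and 2.77 with PM2.5 and 4.09, 4.19 and 4.17 in filtered air, a difference of -1.05 (SE 0.19, adjusted p = 0.139). The cholesterol synthesis enzymes Mvd (0.54) and Fdft1 (0.33) were higher in every exposed library.

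Nuclear genes of the respiratory chain lay above the median of all genes tested. Complex I, which oxidises NADH, had 34 tested subunits, of which 33 had a difference above 0, with a median of 0.51 against 0.09 for all genes. Of the 34, 11 (32.4%) were higher and 0 lower in every exposed library, against 17.0% and 9.29% of all genes. The medians were 0.26 for 4 subunits of complex II, 0.46 for 9 of complex III, 0.51 for 13 of complex IV with cytochrome c, and 0.46 for 18 of ATP synthase. No subunit passed limma's adjusted threshold, and 22, 1, 6, 9 and 10 of these 5 lists were higher at an unadjusted p under 0.05, with none lower. Of all 4780 genes, 729 were higher and 385 lower at that p.

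Ndufa4, a subunit associated with complex IV, was 6.99, 7.32 and 6.88 with PM2.5 and 6.29, 5.87 and 5.77 in filtered air, a difference of 1.09 (SE 0.18, adjusted p = 0.133). Its groups were clearly separate. Ndufc2 was 6.84, 7.07 and 7.20 with PM2.5 and 6.45, 6.45 and 6.32 in filtered air, a difference of 0.63 (SE 0.13, adjusted p = 0.176). Atpif1, the inhibitor of ATP hydrolysis by the synthase, was 6.27, 6.56 and 6.76 with PM2.5 and 6.03, 5.83 and 5.63 in filtered air, a difference of 0.70 (SE 0.17, adjusted p = 0.176). In Ndufc2 and Atpif1 the lowest exposed library was PM2.5 replicate 1.

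The genes encoded by the mitochondrial genome did not follow the nuclear ones. Of 15 tested, 12 had a difference below 0, and the median was -0.19. In every exposed library 1 (6.67%), mt-Co3, was higher and 0 were lower, against 17.0% and 9.29% of all genes. Without air replicate 1, 8 of the 15 were lower in every exposed library, where 16.8% of all genes were. Without PM2.5 replicate 1, which held the lowest mean of this list, the median was -0.01. In that setting 3 (20%) were higher and 0 lower in every exposed library, against 32.7% and 25.1% of all genes. mt-Co3 was 13.19, 13.63 and 13.54 with PM2.5 and 13.11, 13.07 and 13.07 in filtered air. Nd5 of complex I (mt-Nd5) had the second lowest difference, at 9.88, 10.10 and 9.64 against 9.94, 10.90 and 11.31, with overlapping groups.

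Cytosolic ribosomal proteins had 82 tested genes, of which 73 had a difference above 0, with a median of 0.34. Of the 82, 2 (2.44%) were higher and 0 lower in every exposed library, against 17.0% and 9.29% of all genes. Rps26 shows the pattern, at 8.34, 8.69 and 8.81 with PM2.5 and 8.41, 8.05 and 7.73 in filtered air, where PM2.5 replicate 1 lay below air replicate 1. Without PM2.5 replicate 1, 66 of the 82 were higher in every exposed library, and 32 of the 34 complex I subunits were, against 32.7% of all genes. Without air replicate 1, 50 of the 82 and 26 of the 34 were, against 33.7% of all genes. Without PM2.5 replicate 1, 559 genes passed the adjusted threshold, 6.26% of all genes higher and 5.44% lower, among them 11 of 82 ribosomal protein genes, 11 of 34 complex I and 7 of 13 complex IV genes, all higher. The plot of list means by library shows PM2.5 replicate 1 beside the controls for complex I and ribosomal proteins and above all others for immediate early genes.

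**Figure D3:**
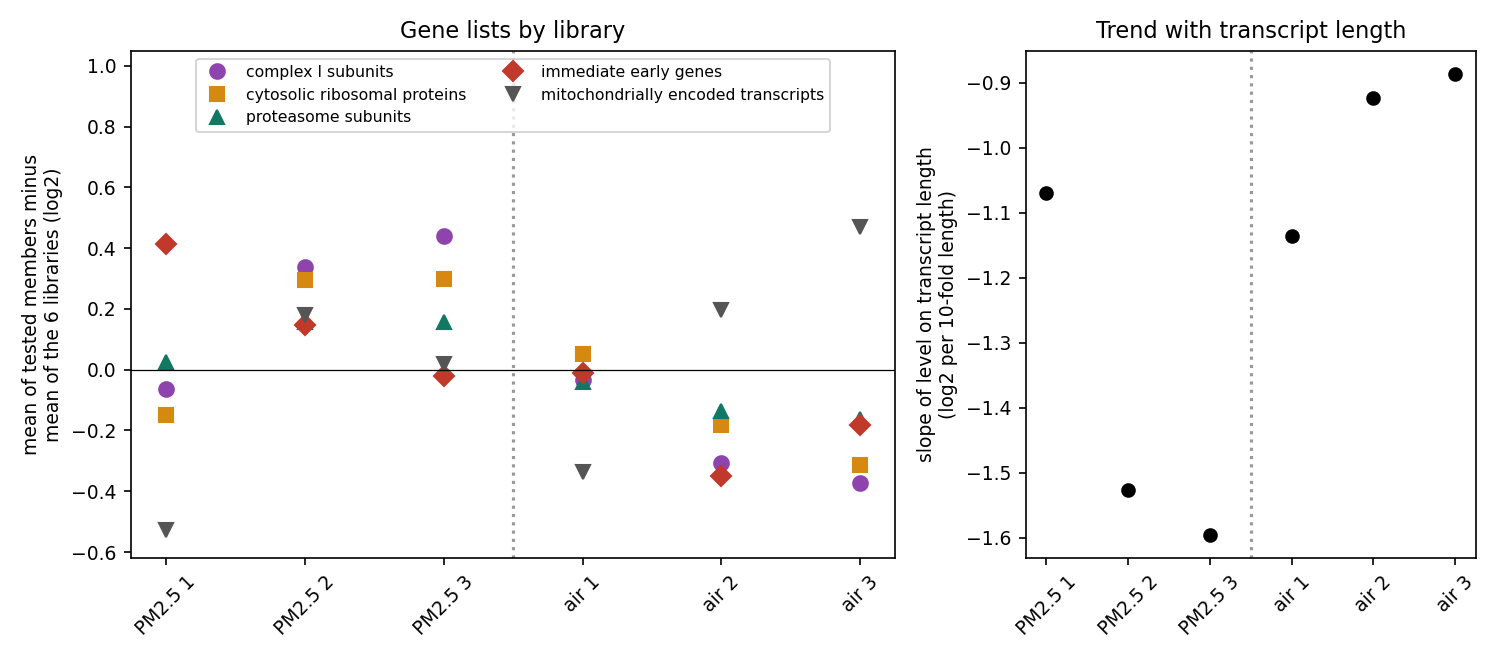
Left, mean level of the tested members of 5 gene lists in each cumulus library, less the mean of the 6 libraries (log2). Right, slope of the level on transcript length in each library (log2 per 10-fold length), from -1.60 in PM2.5 replicate 3 to -0.89 in air replicate 3.

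Differences followed transcript length over the whole table. Among the 920 shortest genes, with a median length of 570 bases, the median difference was 0.30, and among the 919 longest, with a median of 3450 bases, it was -0.16. Of these longest genes 20.3% were lower and 7.83% higher in every exposed library, and of the shortest 4.24% were lower and 20.3% higher. Differences also rose with level. Among the 956 genes with the highest means the median was 0.20, and 21.2% were higher in every exposed library. Among the 956 with the lowest means these were 0.006 and 13.1%. Ribosomal and respiratory chain transcripts are short as a class. With each library's linear trend on length removed, the median was 0.36 for complex I and 0.20 for ribosomal proteins, and 0.54 for immediate early genes. The part of length in these differences was not tested further, and the part of level was not tested.

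Proteasome subunits, which form the particle that degrades ubiquitylated proteins, had 33 tested genes with 10 (30.3%) higher and none lower in every exposed library, against 17.0% and 9.29% of all genes, and a median of 0.21. No subunit passed in limma, and 11 were higher at an unadjusted p under 0.05. Psmb2 of the core particle was 6.69, 7.0 and 6.93 with PM2.5 and 6.53, 6.08 and 6.09 in filtered air. The ubiquitin receptor Adrm1 was 3.29, 3.57 and 3.77 against 2.71, 2.84 and 3.11. For Psmb2 and Adrm1 the groups were separate, with differences of 0.64 (SE 0.17) and 0.66 (SE 0.18) and adjusted p of 0.176 and 0.180. Initiation and elongation factors of translation had a median of -0.05 over 38 genes, with 4 (10.5%) higher and 6 (15.8%) lower in every exposed library. The poly(A)-binding Pabpc1 was lower in every one, at 9.30, 9.43 and 9.21 against 9.54, 9.80 and 10.09.

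**Figure D4:**
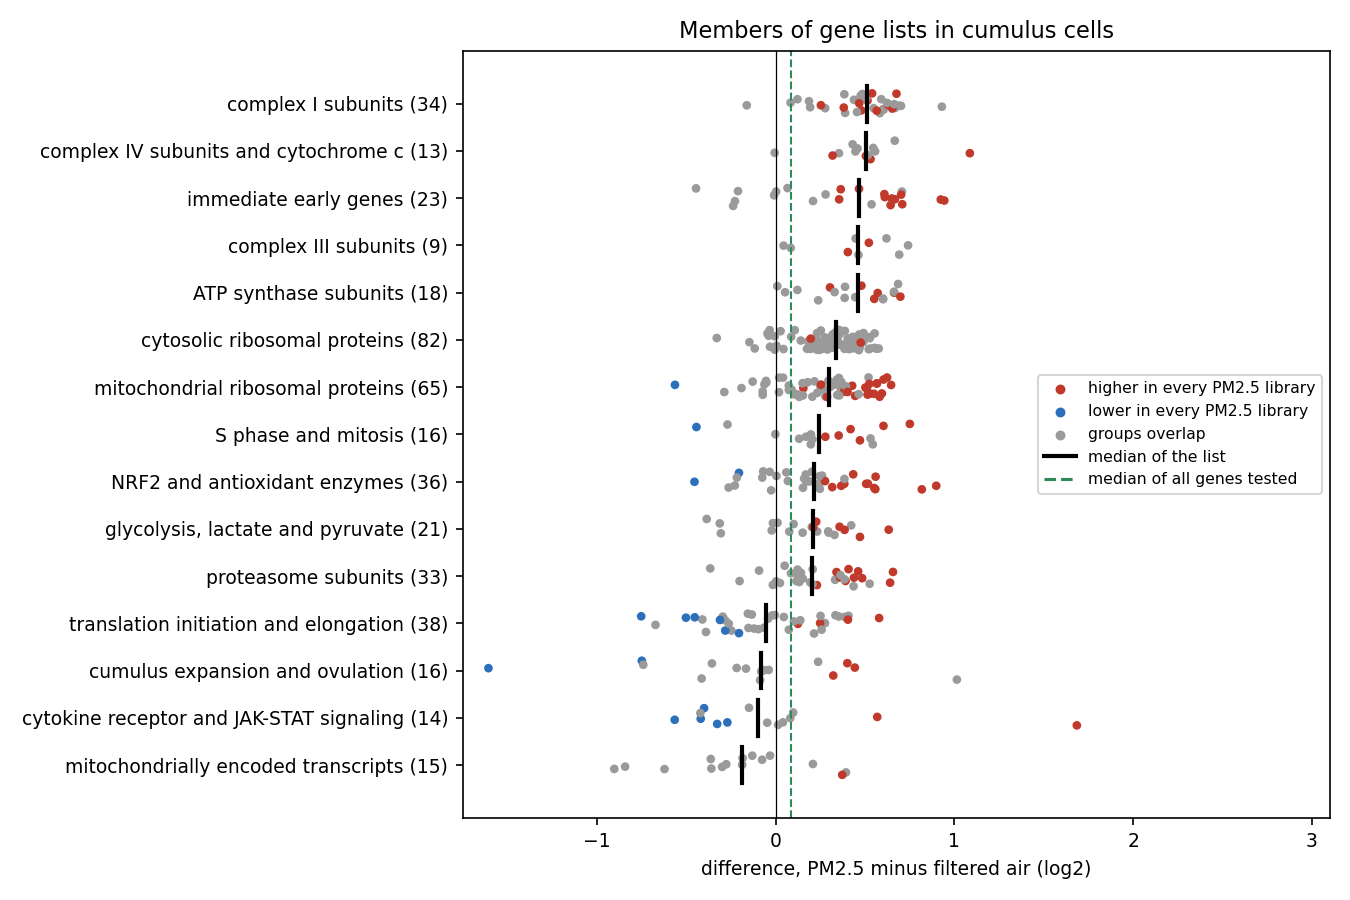
Difference between PM2.5 and filtered air (log2) of each tested member of 15 gene lists, with the number tested in parentheses and the median as a black bar. Red members were higher and blue members lower in every exposed library, and the dashed line is the median of all genes tested, 0.09.

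Genes that answer oxidants were in part higher. Of 36 tested genes of the NRF2 pathway and antioxidant enzymes, 12 (33.3%) were higher and 2 (5.56%) lower in every exposed library, against 17.0% and 9.29% of all genes, and the median was 0.22. Without air replicate 1 the number higher was 18, against 33.7% of all genes. No member passed the adjusted threshold in limma, and the unadjusted p was under 0.05 for 11 higher members and 1 lower member. Gstp1, a glutathione transferase, was 6.65, 7.05 and 6.90 with PM2.5 and 6.33, 6.08 and 5.73 in filtered air, a difference of 0.82 (SE 0.19, adjusted p = 0.176). Glutathione peroxidases Gpx1 (0.56) and Gpx4 (0.38), thioredoxin Txn1 (0.56), the peroxiredoxin Prdx4 (0.52) and the superoxide dismutase Sod1 (0.51) were higher in every exposed library.

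Other well-known targets of NRF2 differed from this. Hmox1, which degrades heme, overlapped at 3.73, 3.64 and 3.99 against 3.79, 3.40 and 3.66, and the factor itself, Nfe2l2 (-0.20), and glutathione reductase, Gsr (-0.45), were lower in every exposed library. The NADPH quinone reductase Nqo1 was under the mean of 3 and overlapped, at 0.91 to 1.43 with PM2.5 and 0.40 to 1.40 in filtered air. The cystine carrier Slc7a11, also under that mean, was lower in every exposed library, at 2.06, 1.80 and 2.02 against 2.63, 2.64 and 2.80.

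The metallothioneins Mt1 and Mt2 bind zinc, copper and cadmium. Mt1 was 6.98, 7.39 and 7.66 with PM2.5 and 6.82, 6.37 and 6.39 in filtered air, a difference of 0.82 (SE 0.21, adjusted p = 0.176). Mt2 had the same difference, 0.82 (SE 0.21), and both were higher in every exposed library, with PM2.5 replicate 1 nearest to the controls. The zinc importer Slc39a10 was lower in every exposed library by -0.45 (SE 0.15).

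Targets of the aryl hydrocarbon receptor, which binds the polycyclic hydrocarbons of combustion particles, showed no separation. None of the 5 tested genes of this list was higher or lower in every exposed library, where 17.0% and 9.29% of all genes were. None passed in limma, and none had an unadjusted p under 0.05. Cyp1b1, a target enzyme well expressed in these cells, was 6.38, 5.80 and 6.14 with PM2.5 and 6.31, 6.19 and 5.72 in filtered air, a difference of 0.03 (SE 0.21). Cyp1a1, Cyp1a2, Aldh3a1 and Ugt1a6a were listed at 0 in all 6 libraries.

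Chemokine and NF-kB genes had 7 tested members, of which 3 (42.9%) were higher in every exposed library, against 17.0% of all genes. The neutrophil chemokine Cxcl1 was 4.55, 3.6 and 3.36 with PM2.5 and 3.06, 2.25 and 2.34 in filtered air, a difference of 1.28 (SE 0.35, adjusted p = 0.180). Nfkbia, the inhibitor that NF-kB itself induces, was 6.45, 7.01 and 6.62 against 5.75, 6.18 and 6.18, a difference of 0.66 (SE 0.19, adjusted p = 0.185). In the same libraries the neutrophil marker S100a9, under the mean of 3, was 0, 0 and 1.83 with PM2.5 and 2.06, 3.33 and 3.96 in filtered air, so it was lower in every exposed library.

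Interferon-stimulated genes, which encode antiviral proteins, mostly lay under the mean of 3, so they are given here over all 17196 genes above 0 in at least 3 libraries. Of these 17196, 11.5% were higher and 6.90% lower in every exposed library. Of 38 such genes on the list, 4 were higher and 9 lower in every exposed library, and the median difference was -0.18. Usp18, the protease that removes the ubiquitin-like ISG15, was 0.92, 1.13 and 1.14 with PM2.5 and 2.60, 2.22 and 2.44 in filtered air, a difference of -1.35 (SE 0.19, adjusted p = 0.164). Cmpk2 (-0.94), Ifit1 (-0.96), Oas1a (-0.68), Rsad2 (-0.66), Irf7 (-0.37) and Rtp4 (-1.17) were lower in every exposed library too, and Ifitm2 (0.69) and Ifi27 (0.40) were higher in every one.

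Genes of S phase and mitosis had 16 tested members, 6 (37.5%) higher and 1 (6.25%) lower in every exposed library, against 17.0% and 9.29% of all genes, with a median of 0.24. Outside this list, the securin Pttg1, which holds sister chromatids together until anaphase, was 4.4, 4.57 and 4.89 with PM2.5 and 3.85, 3.61 and 3.6 in filtered air, a difference of 0.94 (SE 0.17, adjusted p = 0.135). Cdc20, which activates the anaphase-promoting complex, was higher by 0.60 (SE 0.15) in every exposed library and is on the list. Birc5 of the chromosomal passenger complex, from the apoptosis list, was higher by 0.72 (SE 0.15) in every one. The retinoblastoma gene Rb1 was the 1 member lower in every exposed library, at 3.99, 3.37 and 3.33 against 4.01, 4.0 and 4.0. Ccng1, a target of p53, was 4.97, 4.4 and 4.75 against 5.40, 5.49 and 5.47 and was also lower in every exposed library.

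Actin and matrix genes differed in both directions. Actb (0.62, SE 0.13) and the thymosin Tmsb10 (0.88, SE 0.22) were higher in every exposed library, while Actg1 (-0.14) and Ezr (-0.28) were lower in every one. Of 27 tested genes of the actin cytoskeleton, 10 (37%) were higher and 5 (18.5%) lower in every exposed library, against 17.0% and 9.29% of all genes. Col4a2 of the basement membrane (0.86, SE 0.21) and Sparc (0.39) were higher in every exposed library, and Lox, which cross-links collagen, was lower in every one at 6.36, 6.53 and 6.06 against 7.12, 7.25 and 7.03. The difference of Lox was -0.81 (SE 0.15, adjusted p = 0.153).

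Other genes near the threshold were of mixed function. Clu, a secreted chaperone, was 5.96, 5.88 and 5.82 with PM2.5 and 4.83, 5.11 and 4.85 in filtered air, a difference of 0.96 (SE 0.13, adjusted p = 0.0568). Tnni3, a troponin subunit of striated muscle, was 4.51, 4.92 and 4.89 with PM2.5 and 3.78, 3.38 and 3.53 in filtered air, a difference of 1.21 (SE 0.17, adjusted p = 0.0714). Enc1, an actin-binding kelch protein gene, differed by 1.31 (SE 0.20, adjusted p = 0.092) and Mlf1 by 0.82 (SE 0.13, adjusted p = 0.121), both higher in every exposed library. The pseudogene Dynlt1-ps1 was higher by 0.77 (SE 0.14, adjusted p = 0.135). Selenow, a small selenoprotein, was higher by 0.87 (SE 0.15) and Sntb2, a syntrophin, by 0.98 (SE 0.17) in every exposed library, with adjusted p of 0.135 and 0.133. On the lower side, the ubiquitin ligase Rnf125 (-0.82), the ubiquitin ligase adaptor Ndfip1 (-0.75), the GTPase Rhoq (-0.69), the deubiquitinase Usp34 (-0.80) and Kansl2 (-0.58) of a histone acetyltransferase complex were lower in every exposed library, each with an adjusted p of 0.176.

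The responses were set against those of oocytes and blastocysts from the same study, where each gene had to reach the mean of 3 in both sample types. Against oocytes, the response differed for 4 of 2027 genes (0.197%), and against blastocysts for 4 of 3479 (0.115%), with 362 and 604 at an unadjusted p under 0.05. Plaa differed from both. In oocytes it was 6.61, 6.58 and 6.45 with PM2.5 and 6.47, 6.43 and 6.42 in filtered air, and the cumulus response lay 2.13 log2 units under the oocyte response (difference -2.13, SE 0.18, adjusted p = 0.000138). In blastocysts Plaa was 4.74, 5.79 and 5.45 against 4.75, 5.08 and 5.45, and the difference of responses was -2.26 (SE 0.35, adjusted p = 0.0184).

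Gcsh was 7.85, 7.79 and 7.79 with PM2.5 and 7.96, 8.01 and 8.32 in filtered air in blastocysts, and the cumulus response exceeded theirs by 1.37 (SE 0.17, adjusted p = 0.00237). Tpm3-rs7 stood at 6.82, 6.55 and 6.58 against 6.62, 6.34 and 6.36 in blastocysts, and the responses differed by 2.44 (SE 0.21, adjusted p = 7.6e-05). In oocytes, where Tpm3-rs7 did not reach the mean of 3 and was not tested, it was 3.43, 3.79 and 3.50 with PM2.5 and 1.58, 2.02 and 1.38 in filtered air, so the exposed libraries were higher there as well. Gm7600 differed from blastocysts by 1.21 (SE 0.18, adjusted p = 0.0148). Gm12245 and Gm4322 were at 0.81 or less in every oocyte and blastocyst library.

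**Figure D5:**
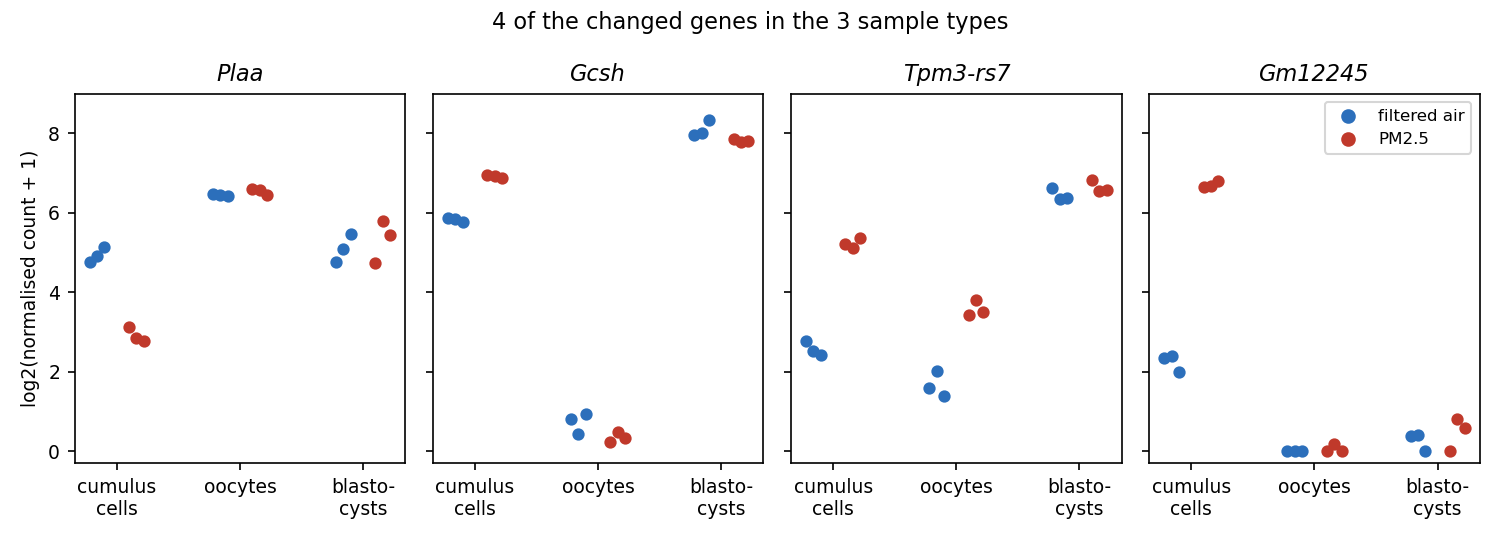
Level of 4 of the changed genes on the log2(normalised count + 1) scale in the 3 filtered-air (blue) and 3 PM2.5 (red) libraries of each sample type. Plaa is low in exposed cumulus cells alone among the 6 groups, and Tpm3-rs7 is also higher in exposed oocytes.

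At the edge of the rule, the 3 genes just above a mean of 3 were Srxn1, Trak2 and Tbc1d14, with differences of -0.26, -0.08 and 0.16 and overlapping groups. The 3 just below it were Nipa2, Fam20b and Pdgfa, of which Nipa2 and Fam20b were lower in every exposed library.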

How the data were processed

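Cumulus cells were lysed and their RNA was reverse-transcribed directly, tailed, amplified and sequenced from both ends, per the labels' protocols. The authors deposited 1 table of log2 values for 52550 genes and 18 libraries. The values are log2(x + 1) of a normalised count x, whose scaling is not given in the sources used here, so depth is known only relatively, at 0.564 to 1.08 times that of PM2.5 replicate 1. FastQC, Cuffnorm, DESeq 1.22.1 and the mm10 build are named per the submitters' processing notes.

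Genes with a mean of at least 3 over the 6 cumulus libraries and above 0 in at least 3 were fitted with limma 3.58.1 in R 4.3.3 (mean-variance trend, Benjamini-Hochberg adjustment over all 4780 genes, threshold 0.05). Because 1 is added to x before the log2, differences of weakly expressed genes come out too small. Differences between sample types were tested as an interaction in the same tool. The procedure was tested on simulated data. Sequences, positions and gene classes are from RefSeq (GRCm38.p6), matched by symbol for 35170 genes, and 27 symbols that had turned into dates and 179 genes sharing a symbol were told apart by gene ID.

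Genes named are those past the threshold, the next 12 in each direction, up to 4 per list with the smallest p or members of named roles, the markers, the 3 on each side of the mean threshold and the 5 leading differences between sample types. The members and lists were chosen with earlier results of these data known. Alternatives were other filters, pseudocounts, normalizations, variance models, a replicate block, a hemoglobin covariate and each library left out. The counts of non-overlapping genes with a library left out were chosen after seeing the data.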

Additional observations from a re-analysis of the deposited data

Results flagged for a closer look

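The response to PM2.5 in cumulus cells differed from that in another sample type for 8 pairs of gene and sample type, each by limma's test of the difference itself with adjustment over all genes compared. Against oocytes the differences were -2.13 for Plaa, -1.09 for Mrpl9 (adjusted p = 0.0255), 0.99 for Gm15542 (adjusted p = 0.0332) and -1.13 for Gm4202 (adjusted p = 0.0455). Mrpl9, a mitochondrial ribosomal protein gene, was 5.46, 5.51 and 5.66 in exposed oocytes and 4.60, 4.64 and 4.52 in oocytes of filtered air, while its cumulus difference was -0.13. Gm15542 had -0.95 in oocytes and 0.04 in cumulus cells, and Gm4202 had 0.05 in oocytes and -1.08 in cumulus cells. Against blastocysts the differences were 2.44 for Tpm3-rs7, 1.37 for Gcsh, 1.21 for Gm7600 and -2.26 for Plaa.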

How the results depend on the processing

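Compared with 8 changed genes, 5 passed with no filter on the mean, 4 with a mean of at least 5, 103 with all 18 libraries in 1 fit, 2236 with library quality weights and 4 with a hemoglobin covariate. With a library left out the count ran from 6 to 559. The replicate block left 3 genes, and it left 1 gene for the difference from oocytes and 4 for that from blastocysts. Deviations of same-numbered libraries correlated at -0.214, -0.244 and -0.161. These values do not show a pairing by number, and with 3 libraries a group they cannot exclude one. With the block the calls of Plaa (adjusted p = 0.121), Socs3 (0.255), Gcsh, Gm7600 and Rps3a2 (0.357 each) ended. Socs3 had an adjusted p of 0.0791 with the length trend removed. Leaving out a library gave 1 to 91 genes for oocytes and 2 to 80 for blastocysts. Genes higher in every exposed library then numbered 937 to 1610, and genes lower in every one 515 to 1201. Quantile normalization moved the median of all genes from 0.09 to 0.02.

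Signs turned for genes with a difference near 0 and for Fos and Hsd3b1, which each have a library far from the others. Beside its reported difference in parentheses, each gene has its value where the sign turned. Bex4 (0.14) was -0.0232 under quantile normalization. Cyp1b1 (0.03) was -0.0741 under quantile normalization, -0.0247 under median centring, -0.243 under library quality weights, -0.0668 under hemoglobin covariate and from -0.144 to 0.186 with a library left out. Fos (0.71) was from -1.06 to 2.95 with a library left out. Fst (-0.03) was 0.0313 under length trend removed and from -0.117 to 0.0725 with a library left out. Gm15542 (0.04) was -0.057 under quantile normalization, -0.0169 under median centring, -0.0192 under library quality weights and from -0.0422 to 0.0906 with a library left out. Hsd3b1 (-1.37) was from -2.35 to 0.34 with a library left out. Nr5a2 (0.06) was -0.0371 under quantile normalization, -0.0853 under library quality weights and from -0.0273 to 0.145 with a library left out. Stat3 (-0.05) was from -0.128 to 0.0482 with a library left out. Depth is unknown in absolute terms, and with 3 libraries a group small differences may not pass.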

Other observations

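In 53 tested genes 1 library lay more than 2 log2 units below the median of the other 5, which lay within 1 unit of each other. In no gene did 1 library lie that far above such a median. The 53 were spread over the 6 libraries, with 9 to 11 in each exposed library and 7 or 8 in each control. Hsd3b1 in PM2.5 replicate 1 was among them.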
